A study of Homo sapiens with 12 samples.

Results

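The genes described here are 51 members of the WNT pathway: 19 WNT ligands, 12 receptors, 7 secreted inhibitors, 4 genes of the R-spondin system, and 9 nuclear factors and feedback targets. They were found by symbol among the 28207 genes of a count table from human cerebral organoids, and 47 of them had enough counts to be tested. The ligands WNT2, WNT6, WNT8A and WNT9B did not. The organoids derive from H1 cells, a widely used line of human embryonic origin, and were either FEZ1-null (KO) or wildtype (WT). FEZ1 is an adaptor protein of kinesin motors. There were 2 KO and 2 WT libraries at day 60 and 4 KO and 4 WT libraries at day 10, and the study asked how FEZ1 affects progenitor specification and neuronal migration. All groups share the H1 background. How many KO clones were used, and whether replicates are separate cultures, is not in the labels, so p-values measure only the spread between these libraries, possibly a technical one. Each label also carries a code of unstated meaning: all day 60 libraries and replicates 1 and 2 of day 10 carry B16, replicate 3 of day 10 carries B27 and replicate 4 carries B29.

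WNT proteins are secreted lipid-modified signals that bind Frizzled (FZD) receptors together with the co-receptors LRP5 and LRP6. In the canonical branch this stabilises beta-catenin, which enters the nucleus and acts with TCF/LEF factors on target genes, several of which encode inhibitors of the same pathway. In the early neural plate, WNT signals from dorsal and posterior sources promote dorsal, posterior and neural crest fates, while secreted inhibitors at the anterior end protect the forebrain.

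Total counts per library ran from 15.7 M to 22.7 M. FEZ1 itself was lower in KO organoids, by a log2 fold change of -1.11 ± 0.11 (SE) at day 10 and -2.19 ± 0.16 at day 60, with adjusted p of 0.00153 and 0.000335. Within day 10, the leading principal component held 57.5% of the variance and placed WT replicates 1 and 2, both coded B16, at 78.3 and 99.1. The other 6 libraries lay between -38.7 and -16.2, among them the KO libraries coded B16. KO replicate 1 stood apart on the next component, at 80.1, and had 14.3% of its counts in ribosomal protein genes. The summed level of 12 neural crest markers, all of them tested, was 153 to 224 CPM (counts scaled to library size) in KO libraries of day 10. It was 1059 and 1549 CPM in WT replicates 1 and 2, and 155 and 144 CPM in WT replicates 3 and 4. FOXD3 was at 0 in KO replicate 3, and no other crest marker was at 0 in a library. The summed level of 10 neuronal markers was 678 to 984 CPM in KO libraries, against 2118, 2394, 702 and 740 CPM in WT replicates 1 to 4. Results at day 10 are therefore given for all libraries, within B16 (replicates 1 and 2 of each genotype) and within B27 and B29 (replicates 3 and 4).

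Tests are edgeR quasi-likelihood tests with Benjamini-Hochberg adjustment over 17757 genes, and a gene with an adjusted p below 0.05 is called. Between day 60 and day 10, 30 of the 47 tested members were called in KO organoids, 10 higher and 20 lower at day 60. Among all genes tested, 57.6% were called there, 30.7% higher and 26.9% lower. In WT organoids 29 members were called, 8 higher and 21 lower, against 55.4% of all genes, 29.3% higher and 26.1% lower. The median log2 fold change of the members was -0.86 in KO organoids and -1.01 in WT organoids, against 0.03 and -0.01 over all genes tested. All day 60 libraries carry B16. With only the B16 libraries of day 10, 32 members were called in KO, 13 of them higher, against 63.4% of all genes. In WT 38 members were then called, 11 of them higher, against 58.4% of all genes.

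Between KO and WT organoids no member was called at day 10, where 0.124% of all genes were, and none at day 60, where 0.0225% were. At an unadjusted p below 0.05 there were 10 members higher and 9 lower in KO organoids at day 10, and 1 higher and 2 lower at day 60. Of all 17757 genes, 660 were higher and 1518 lower at that level at day 10, and 492 higher and 503 lower at day 60. DESeq2 called 5 members and 500 genes at day 10, SFRP2 higher and WNT4, WNT10B, FZD10 and RNF43 lower in KO organoids, and at day 60 no member and 133 genes. The same 5, among 526 of 19365 genes, have an adjusted p below 0.05 in the authors' deposited table of FEZ1-null against wildtype organoids, which was made from the same libraries. The difference of the genotype effect between the days was called for 0 members and for 0% of all genes. At an unadjusted p below 0.05 it had 5 members on each side, against 710 higher and 559 lower of all 17757 genes. DESeq2 called no member and 67 genes there.

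The label codes differed at day 10. Within B16, 23 members were called between KO and WT organoids, 11 higher and 12 lower in KO, against 19% of all genes, 8% higher and 11% lower. Within B27 and B29 no member was called, against 0.0507% of all genes, and 3 members were higher and 1 lower at an unadjusted p below 0.05. At that level 362 of all 17757 genes were higher and 278 lower. The difference of the KO effect between B16 and the other codes was called for 14 members, 3 with a higher and 11 with a lower effect in B16, against 5.95% of all genes, 1.51% higher and 4.44% lower. Between codes within WT organoids, 26 members were called, 16 higher and 10 lower in B16, against 16.8% of all genes, 10.8% higher and 5.98% lower. Within KO organoids no member was called between codes, where 3.01% of all genes were. Comparisons that use the WT libraries of B16 share those libraries, and 1 library moved their counts by over 1.5 times. Without WT replicate 2 of day 10, 15 members and 998 genes were called within B16, against 3369 genes with all libraries. Between codes in WT, 13 members and 1017 genes were called without WT replicate 2, 13 and 1152 without replicate 3, and 12 and 1193 without replicate 4, against 2983 genes with all libraries. For the difference of the KO effect, 23 members and 7157 genes were called without KO replicate 2, and 3 members and 337 genes without KO replicate 4, against 1057 genes with all libraries. It was 8 members and 459 genes without WT replicate 2, 7 and 461 without replicate 3, and 7 and 489 without replicate 4. In these settings the counts of members and of all genes moved in the same direction. Where leaving out 1 library moved the count of members by less than 1.5 times, the directions could differ.

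**Figure D1:**
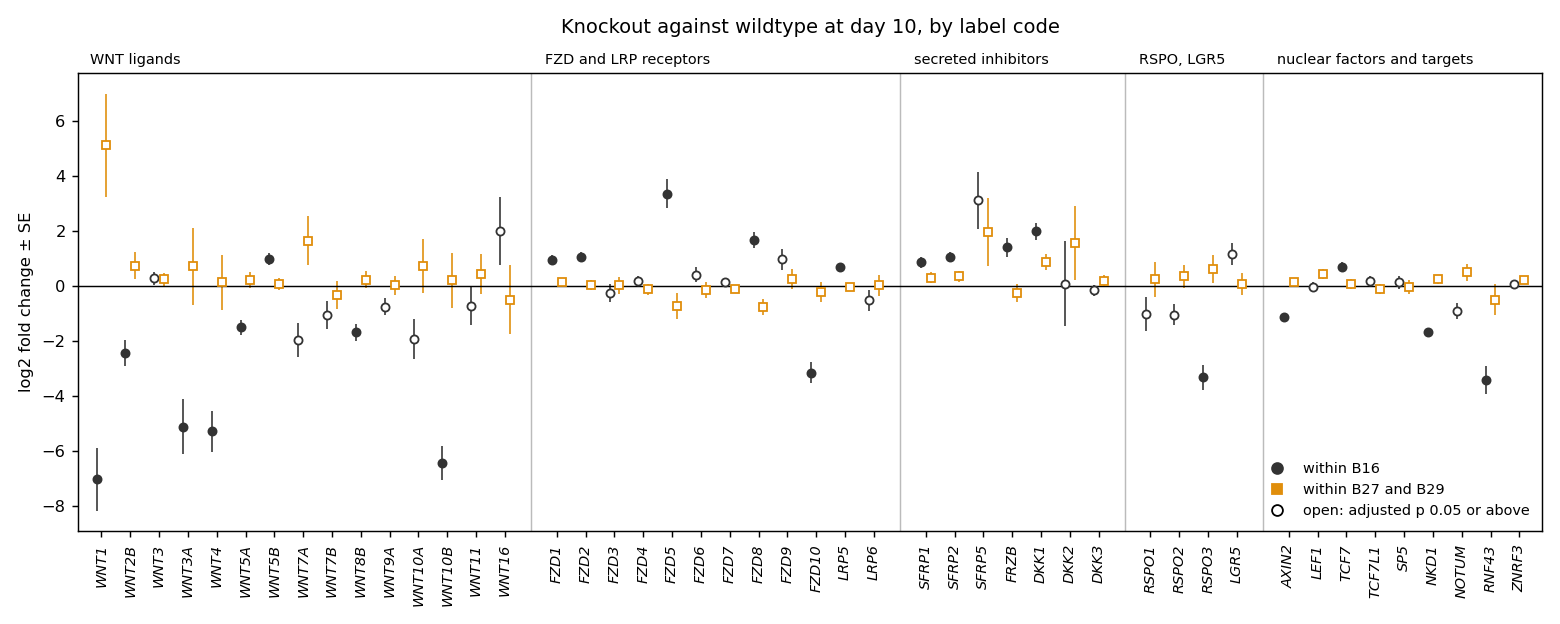
Log2 fold change of KO against WT organoids at day 10 with its SE for the 47 tested members, grouped by role, within code B16 (2 libraries per genotype, circles) and within B27 and B29 (2 per genotype, squares). Filled symbols have an adjusted p below 0.05; 23 circles and no square are filled.

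The ligands changed in kind between the days. Per kilobase of exon, WNT8B and WNT5B were the leading pair in every library of day 10 but WT replicates 1 and 2, where WNT8B was followed by WNT1, and at day 60 WNT8B was almost gone while WNT7B, WNT5B and WNT7A led in all 4 libraries. WNT8B, a ligand of the early forebrain and later of the cortical hem, stood at 1.75 and 1.42 CPM at day 60 in KO organoids, against 57.3, 37.4, 54.5 and 118 CPM at day 10. In WT organoids WNT8B stood at 0.833 and 0.656 CPM at day 60, against 147, 156, 70.8 and 75.3 CPM at day 10. Every day 60 library lay far below every day 10 library, and the log2 fold change was -5.39 ± 0.61 in KO and -7.22 ± 0.68 in WT (adjusted p = 2.45e-05 and 7.5e-06). WNT5B, a non-canonical ligand, was at 18.4 and 17.9 CPM at day 60 in KO organoids, against 83.8, 53.1, 48.2 and 52.2 CPM at day 10. In WT organoids WNT5B was at 21.1 and 19.4 CPM at day 60, against 41.1, 27.9, 47.1 and 46.9 CPM at day 10. WNT5B fell in both genotypes, by 1.71 ± 0.27 in KO and 1.01 ± 0.26 in WT on the log2 scale, and the WT call ended without WT replicate 2 of day 60 (adjusted p = 0.0562).

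WNT7A, which signals in neural progenitors and to brain vessels, went the other way. It had 25.2 and 22.8 CPM at day 60 in KO organoids, against 1.05, 0.188, 0.243 and 1.35 CPM at day 10. In WT organoids WNT7A had 25.7 and 18.7 CPM at day 60, against 2.54, 2.03, 0.257 and 0.228 CPM at day 10. All 4 day 60 libraries lay above all 8 day 10 libraries, with log2 fold changes of 5.11 ± 0.82 and 4.10 ± 0.77. WNT11, a ligand of gastrulation movements in frog and zebrafish, also rose in both genotypes (2.64 ± 0.54 in KO, 2.73 ± 0.53 in WT), as did WNT16 from very low levels (2.40 ± 0.76 and 3.51 ± 0.78). WNT3, a canonical ligand, rose by less than any other called ligand, 0.68 ± 0.24 in KO and 0.64 ± 0.24 in WT. The WNT3 and WNT16 calls in KO were lost without either day 60 library or without KO replicate 2 of day 10 (adjusted p up to 0.163 and 0.103). The WNT3 call in WT was lost without either day 60 library or without WT replicate 1, 2 or 3 of day 10 (adjusted p up to 0.216), and that of WNT16 in WT was kept in the 12 alternatives. WNT10B (5.11 ± 1.48) and WNT4 (3.63 ± 1.34) rose in KO, where both were low at day 10, with 5.77 and 5.49 CPM for WNT10B and 5.21 and 7.93 CPM for WNT4 at day 60. In WT they had 0.13 ± 1.20 and -0.90 ± 1.28, and the difference between genotypes was not called for either (adjusted p = 0.662 and 0.68). The WT libraries of day 10 were split. WT replicates 3 and 4 were as low as KO, with 0.257 and 0.057 CPM for WNT10B and 0.617 and 0.399 CPM for WNT4. WT replicates 1 and 2 had 7.08 and 16.6 CPM for WNT10B and 13.8 and 23.8 CPM for WNT4. In WT at day 60 WNT10B had 6.51 and 6.66 CPM and WNT4 4.43 and 5.90 CPM. The WNT4 call was lost in 7 of 12 alternatives, among them without either KO library of day 60 and without KO replicate 1, 2 or 3 of day 10. WNT3A fell in WT, with 0 and 1 counts at day 60, against 145, 202, 5 and 2 counts in replicates 1 to 4 of day 10. Nearly all counts of day 10 thus came from replicates 1 and 2. With libraries pooled the ratio of rates was 0.00569, with a 95% exact counting interval of 0.000144 to 0.0319. That interval leaves out the spread between libraries. The WNT3A call was lost without either WT library of day 60 and without the filter on low counts. WNT7B did not pass the test in either genotype and stood at 37.8 to 52.2 CPM in all 4 day 60 libraries, against 12.3 to 60.6 CPM in the 8 of day 10.

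Levels of different ligands were compared per kilobase of exon. WNT8B made up 2.43% and 1.76% of all WNT ligand CPM per kb in KO libraries of day 60 and 1.12% and 0.803% in WT libraries of day 60. At day 10 its share was 36.9% to 58.2% in KO and 42.5% to 53.9% in WT libraries. WNT7B, a canonical ligand of the forebrain, held 21.9% and 27.02% in KO libraries of day 60, against 4.74% to 10.9% in KO libraries of day 10. The summed ligand level was 34.2 and 38.2 CPM per kb in KO libraries of day 60, against 73.5, 46.1, 51.2 and 95.8 in those of day 10. In WT libraries it was 35.3 and 38.7 CPM per kb at day 60, against 139, 173, 64.0 and 66.1 at day 10.

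**Figure D2:**
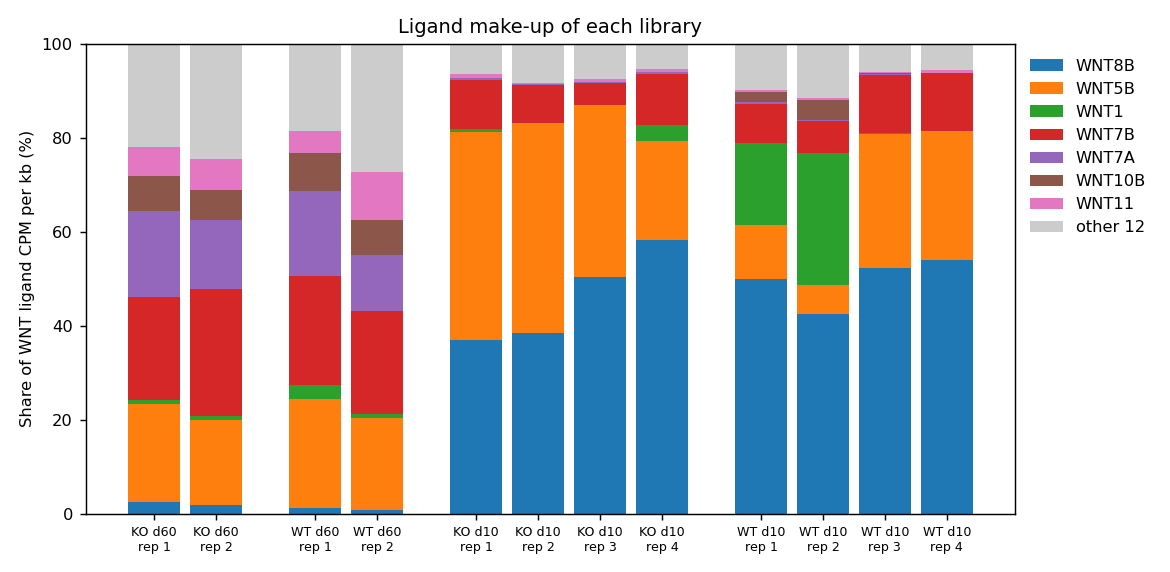
Share of each WNT ligand in the summed ligand CPM per kb of exon of each library (stacked bars to 100%), KO left of WT at day 60 and then at day 10; 12 ligands are pooled. WNT8B is the lowest block and falls below 2.5% at day 60, and WNT1 is a visible block at day 10 in WT replicates 1 and 2 (17.4% and 28.0%).

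Several ligands were highest at day 10 in WT replicates 1 and 2, among them the dorsal neural tube ligands WNT1, WNT3A and WNT10B and the non-canonical WNT5A. WNT1, which marks the dorsal midline and the midbrain border, had 0.756, 0.0469, 0 and 4.31 CPM in KO libraries of day 10, against 32.6, 65.5, 0.0514 and 0.057 CPM in WT libraries. It was high in both WT libraries of B16, near 0 in the WT libraries of the other codes, and among KO libraries highest in replicate 4, coded B29. WNT10B lies next to WNT1 on chromosome 12 of GRCh38 (WNT1 at 48978453 to 48981676, WNT10B at 48965340 to 48971763), 6.69 kb away on the opposite strand. It had 0.116, 0.141, 0.0607 and 0.322 CPM in KO libraries, against 7.08, 16.6, 0.257 and 0.057 CPM in WT libraries. The pair was high in the same 2 libraries.

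WNT3A, a hem and dorsal ligand, had 0.465, 0.0469, 0 and 0.643 CPM in KO libraries of day 10, against 6.46, 10.5, 0.257 and 0.114 CPM in WT libraries. WNT4 had 0.756, 0.235, 0 and 1.16 CPM in KO libraries, against 13.8, 23.8, 0.617 and 0.399 CPM in WT libraries. For both, WT replicates 1 and 2 lay above all KO libraries and WT replicates 3 and 4 lay among them. Over all libraries the log2 fold changes were -4.31 ± 1.72 for WNT1, -5.20 ± 1.38 for WNT10B, -3.94 ± 1.36 for WNT3A and -4.19 ± 1.24 for WNT4 (adjusted p = 0.338, 0.225, 0.272 and 0.226). Within B16 they were -7.02 ± 1.15, -6.44 ± 0.63, -5.11 ± 1.01 and -5.29 ± 0.76, all called. Within B27 and B29 they were 5.13 ± 1.88, 0.21 ± 1.01, 0.72 ± 1.42 and 0.14 ± 0.995, none called, and the value of WNT1 there came from KO replicate 4.

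Of 15 tested ligands, 7 were lower and 1 higher in KO within B16, with a median log2 fold change of -1.68 against -0.01 over all genes. The other lower ones were WNT2B (-2.44 ± 0.47), WNT5A (-1.49 ± 0.27) and WNT8B (-1.68 ± 0.31), and WNT5B was higher (0.99 ± 0.22). WNT2B and WNT5A are, with WNT3A and WNT8B, known hem ligands. Without WT replicate 2 the calls of WNT2B, WNT3A and WNT5B were lost (adjusted p = 0.0577, 0.0577 and 0.137), and that of WNT2B also without KO replicate 1. The KO effect differed between codes for WNT1 (-12.15 ± 2.02), WNT10B (-6.64 ± 1.40), WNT4 (-5.43 ± 1.31), WNT2B (-3.19 ± 0.68), WNT8B (-1.91 ± 0.43) and WNT5A (-1.72 ± 0.39). Without KO replicate 4 none of these 6 was called, and without WT replicate 4 only WNT1 was. In WT organoids WNT7A (3.20 ± 0.73) and WNT10A (2.97 ± 0.81) were also higher in B16 than in the other codes, calls that were lost without any 1 of the 4 libraries. The neural crest and neuronal marker sums given above were high in the same 2 WT libraries. So were those of 8 roof plate and hem markers, at 163 to 229 CPM in KO libraries, against 309, 383, 161 and 206 CPM in WT libraries. Of the 12 crest markers 9 were called lower in KO within B16, and of the 8 roof plate markers, all tested, 5 were. TTR, a roof plate list marker of choroid plexus, was at 0 in KO replicates 1 and 3 and WT replicates 3 and 4 of day 10. Their part in the ligand result was not tested. In bulk RNA, fewer cells of a type and less RNA per cell cannot be told apart.

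**Figure D3:**
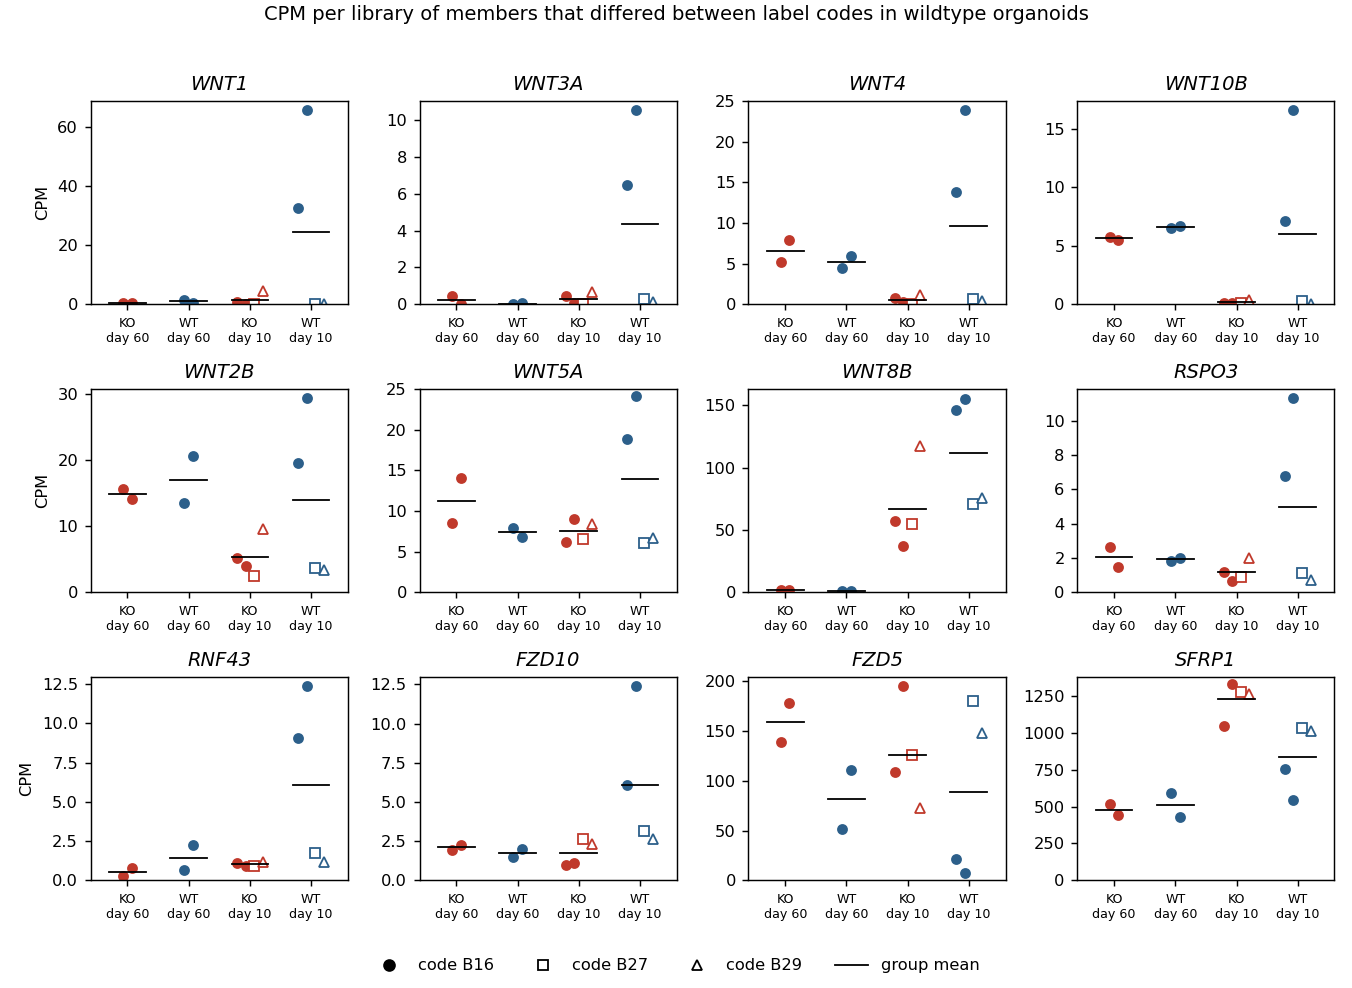
CPM of 12 members in each library (points) with the group mean (line), KO left of WT at day 60 and then at day 10; filled circles are code B16, open squares B27 and open triangles B29. WNT1, WNT3A, WNT4, WNT10B, WNT2B, WNT5A, WNT8B, RSPO3, RNF43 and FZD10 have their highest values of day 10 in the 2 WT libraries of B16, where FZD5 and SFRP1 are lowest of their day.

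Among receptors, FZD2 led per kb of exon at both days, with FZD7 next in 3 of the 4 libraries of day 60 and FZD8 in the other. FZD2 had 104 and 107 CPM at day 60 in KO organoids, against 477, 321, 339 and 335 CPM at day 10. In WT organoids FZD2 had 94.7 and 99.2 CPM at day 60, against 210, 168, 315 and 336 CPM at day 10. No day 60 library reached a day 10 library, and the log2 fold change was -1.80 ± 0.29 in KO and -1.41 ± 0.28 in WT. FZD8 moved the opposite way, with 119 and 121 CPM at day 60 in KO organoids, against 32.1, 25.4, 23.8 and 12.6 CPM at day 10. In WT organoids FZD8 had 115 and 89.3 CPM at day 60, against 10.4, 7.3, 34.2 and 27.3 CPM at day 10. FZD8 rose in both genotypes (2.35 ± 0.50 in KO, 2.37 ± 0.50 in WT), and the ranges of the days did not overlap.

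Of the 12 tested receptors 1 was higher and 4 lower at day 60 in KO, and 1 higher and 5 lower in WT. FZD1 (-1.75 ± 0.24 in KO, -1.25 ± 0.23 in WT), FZD6 (-1.68 ± 0.40 and -2.004 ± 0.41) and FZD3 (-0.96 ± 0.34 and -1.53 ± 0.35) fell in both. FZD3 and FZD6 are receptors of planar cell polarity. The FZD3 call in KO was lost in 7 of 12 alternatives, among them B16 libraries only and the removal of any 1 KO library except day 10 replicate 1 (adjusted p up to 0.154). FZD10 passed the test in WT (-1.80 ± 0.65) and not in KO (0.27 ± 0.61), and the difference between genotypes was not called (2.06 ± 0.87, adjusted p = 0.677). Its WT call was lost without WT replicate 1 or 2 of day 10 and without either day 60 library. The co-receptors LRP5 and LRP6 were not called in either genotype. LRP6 had 138 and 126 CPM at day 60 in KO organoids, against 45.0, 148, 134 and 158 CPM at day 10. In WT organoids LRP6 had 139.6 and 129.9 CPM at day 60, against 143, 132, 140.4 and 144 CPM at day 10. KO replicate 1 of day 10 was the low one, and FZD3 (147 CPM against 339 to 433 in the other KO libraries), FZD4 and FZD6 were low in it too.

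FZD2 held 26.4% of the receptors' CPM per kb in both KO libraries of day 60, against 51.05% to 67.6% in KO libraries of day 10. In WT libraries it held 25.6% and 27.7% at day 60, against 48.3% to 52.4% at day 10. FZD8 held 15.8% and 15.6% in KO libraries of day 60, against 1.09% to 2.38% in those of day 10, and in WT libraries 16.3% and 13.1%, against 1.10% to 2.86%. FZD7 held 16.3% and 14.7% in KO libraries of day 60, against 6.53% to 10.4% in those of day 10. In WT libraries FZD7 held 23.3% and 19.4% at day 60, against 10.3% to 11.5% at day 10, although its CPM was not called in either genotype.

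At day 10 FZD5, a receptor of the eye field and anterior neural plate, and FZD10, a receptor of the dorsal neural tube, stood in opposite order in the WT libraries of B16. FZD5 had 109, 195, 125 and 73.1 CPM in KO libraries of day 10, against 21.8, 7.4, 179.8 and 147 CPM in WT libraries. WT replicates 1 and 2 lay below all KO libraries, while replicates 3 and 4 overlapped with them. FZD10 had 0.989, 1.08, 2.67 and 2.32 CPM in KO libraries, against 6.06, 12.4, 3.14 and 2.62 CPM in WT libraries. Within B16 FZD5 was higher in KO (3.37 ± 0.54, adjusted p = 0.00181) and FZD10 lower (-3.14 ± 0.37, adjusted p = 0.000256). Within B27 and B29 the values were -0.72 ± 0.48 and -0.21 ± 0.35, and the difference between codes was 4.09 ± 0.72 and -2.93 ± 0.51, both called. The difference of FZD5 lost its call without KO replicate 4 and without the filter on low counts.

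Within B16, 5 of 12 receptors were higher and 1 lower in KO, with a median log2 fold change of 0.55. FZD8 (1.70 ± 0.29), FZD2 (1.08 ± 0.18), FZD1 (0.96 ± 0.16) and LRP5 (0.69 ± 0.15) were the other higher ones, and LRP5 lost its call without WT replicate 2 (adjusted p = 0.123). Within B27 and B29 the value of FZD8 was -0.75 ± 0.28, and its difference between codes was called (2.45 ± 0.40), as was that of FZD2 (1.03 ± 0.25). FZD8 kept its call in all 12 alternatives, and FZD2 lost it without KO replicate 3 or 4 or WT replicate 2, 3 or 4. The summed level of 8 forebrain markers, none of them at 0, was 937 to 1118 CPM in KO libraries of day 10, against 661, 499, 894 and 981 CPM in WT libraries, and its part in the receptor levels was not tested.

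Among the secreted inhibitors, SFRP1 and SFRP2 led per kb of exon at day 10, and DKK3 and SFRP1 at day 60. SFRP2, which binds WNT proteins outside the cell, had 51.5 and 60.7 CPM at day 60 in KO organoids, against 566, 423, 469.7 and 447 CPM at day 10. In WT organoids SFRP2 had 48.4 and 68.8 CPM at day 60, against 259, 214, 359 and 355 CPM at day 10. DKK1, an inhibitor of LRP5 and LRP6 that is needed for head formation in mouse, had 0.396 and 0.406 CPM at day 60 in KO organoids, against 38.7, 37.3, 56.9 and 38.8 CPM at day 10. In WT organoids DKK1 had 0.26 and 1.26 CPM at day 60, against 10.2, 8.81, 25.1 and 27.2 CPM at day 10. Both genes were lower in every day 60 library than in any day 10 library. SFRP2 fell by 3.09 ± 0.27 in KO and 2.34 ± 0.26 in WT on the log2 scale, and DKK1 by 6.72 ± 0.76 and 4.53 ± 0.67. DKK1 ranged from -6.06 to -3.62 in WT over 12 alternatives, the smallest change being that within B16.

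DKK3, a divergent member of its family, had 463 and 467 CPM at day 60 in KO organoids, against 17.9, 11.9, 11.8 and 16.1 CPM at day 10. In WT organoids DKK3 had 361 and 354 CPM at day 60, against 17.1, 15.8, 11.1 and 13.1 CPM at day 10. It rose by 5.01 ± 0.21 in KO and 4.64 ± 0.21 in WT, with the smallest adjusted p of all members in both genotypes (3.66e-08 and 5.72e-08). SFRP5 and DKK2 rose from almost no counts in both genotypes, by 3.17 ± 0.52 and 4.93 ± 0.61 in KO. SFRP5 had 69 counts in the 2 WT libraries of day 60, against 2 in the 4 of day 10, a ratio of rates of 69.5 with a 95% exact counting interval of 18.5 to 584.9. DKK2 had 105 counts against 2, a ratio of 105.7 with an interval of 28.5 to 884. SFRP1 fell by 1.36 ± 0.26 in KO and 0.71 ± 0.25 in WT, and FRZB fell in KO (-1.58 ± 0.46), with -0.09 ± 0.43 in WT. The SFRP1 call in WT was lost within B16 (-0.35 ± 0.20, adjusted p = 0.148), without WT replicate 3 or 4 of day 10 and without replicate 2 of day 60. The FRZB call was lost without either KO library of day 60.

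At day 10 all 7 inhibitors of this class had a positive log2 fold change of KO against WT, from 0.01 to 2.67 with a median of 0.68, and 4 of them an unadjusted p below 0.05. Secreted or surface modulators outside the members went both ways. SOSTDC1 was at 0.789 to 1.40 CPM in KO libraries, against 1.67 to 2.42 CPM in WT libraries. KREMEN1 had a mean of 23.4 CPM in KO, against 20.7 CPM in WT. SFRP1 had 1045, 1334, 1274 and 1266 CPM in KO libraries, against 756, 543, 1032 and 1013 CPM in WT libraries. With the values of SFRP2 and DKK1 above, every KO library lay above every WT library for these 3 genes, by a narrow margin for SFRP1. SFRP5 and the ligand WNT5B did the same, so that 5 of 47 tested members, 10.6%, had no overlap between the genotypes, all of them higher in KO. Among all genes tested 5% had none, and 2.33% had none and were higher in KO. The counts of SFRP5 were 14 in the 4 KO libraries, against 2 in the 4 WT libraries, a ratio of 7.80 with an interval of 1.79 to 70.7. The lowest KO library and the highest WT library each held 1 count of SFRP5, so its lack of overlap rests on library size alone.

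None of these inhibitors was called over all libraries. The log2 fold change was 0.56 ± 0.20 for SFRP1, 0.68 ± 0.19 for SFRP2 and 1.27 ± 0.40 for DKK1 (adjusted p = 0.283, 0.225 and 0.241). Within B16 they were 0.87 ± 0.20, 1.06 ± 0.19 and 2.0 ± 0.30, all called, and FRZB was called too (1.42 ± 0.35). Within B27 and B29 they were 0.31 ± 0.20, 0.36 ± 0.19 and 0.87 ± 0.29 (adjusted p = 1, 1 and 0.991), smaller and with the same sign, while FRZB had -0.25 ± 0.34. The difference between codes was not called for any inhibitor, and was 1.13 ± 0.41 for DKK1 (adjusted p = 0.14). The B16 calls of SFRP1, SFRP2 and FRZB were lost without WT replicate 2 (adjusted p = 0.147, 0.0661 and 0.175), and that of FRZB also without KO replicate 1. The summed inhibitor level per kb was 543, 528, 546 and 522 CPM per kb in KO libraries, against 305, 234, 424 and 419 in WT libraries, with no overlap. A sum of 9 retina and pigment epithelium markers stood at 509 to 1001 CPM in KO libraries. In WT libraries it was 335 to 442 CPM, also without overlap. Most of this sum was PMEL, at 403 to 736 CPM in KO libraries, against 281 to 364 CPM in WT libraries. RAX overlapped between genotypes, with 76.8 to 197 CPM in KO libraries, against 18.4, 3.44, 121 and 114 CPM in WT libraries. TYR was at 0 in all WT libraries and in KO replicates 1, 2 and 4. Of the 9 markers, 8 had a positive log2 fold change and DCT was called. The part of this sum in the inhibitor levels was not tested.

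The R-spondins are secreted proteins that strengthen WNT signals through LGR receptors. LGR5, such a receptor and itself a WNT target, had 3.51 and 3.3 CPM at day 60 in KO organoids, against 34.5, 64.5, 74.1 and 83.6 CPM at day 10. In WT organoids LGR5 had 0.729 and 2.77 CPM at day 60, against 29.5, 14.6, 72.0 and 77.1 CPM at day 10. LGR5 fell in both genotypes (-4.23 ± 0.78 in KO, -4.77 ± 0.82 in WT), and at day 10 both genotypes were lower in B16 than in the other codes. That difference between codes was called in WT (-1.75 ± 0.41, adjusted p = 0.0153, lost without WT replicate 2, 3 or 4) and not in KO (-0.67 ± 0.40, adjusted p = 0.282).

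RSPO1 had 0.17 and 0.457 CPM at day 60 in KO organoids, against 14.7, 9.95, 8.55 and 11.4 CPM at day 10. In WT organoids RSPO1 had 0.26 and 5.04 CPM at day 60, against 22.8, 27.4, 8.07 and 8.61 CPM at day 10. It fell by 5.10 ± 1.10 in KO and 2.65 ± 0.86 in WT on the log2 scale, and the WT call was lost without WT replicate 1 of day 60 (adjusted p = 0.0755). WT replicate 2 stood alone at the high end of day 60. RSPO3 was likewise highest in WT replicates 1 and 2, with 1.16, 0.657, 0.91 and 1.99 CPM in KO libraries of day 10, against 6.77, 11.3, 1.13 and 0.742 CPM in WT libraries. It was lower in KO within B16 (-3.32 ± 0.47, adjusted p = 0.00082), with 0.61 ± 0.51 within B27 and B29, and the difference between codes was called (-3.94 ± 0.69) except without KO replicate 4 (adjusted p = 0.0668).

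The nuclear factors and feedback targets were the class with the most uniform change over time. All 9 had a negative log2 fold change from day 10 to day 60 in both genotypes and 8 were called in each, with medians of -1.92 in KO and -2.07 in WT. RNF43 was the exception (-0.86 ± 0.98 and -2.07 ± 0.90, not called). SP5, a direct WNT target that encodes a transcription repressor, had 0.17 and 0.61 CPM at day 60 in KO organoids, against 77.2, 54.9, 59.1 and 48.0 CPM at day 10. In WT organoids SP5 had 0.156 and 0.353 CPM at day 60, against 52.9, 67.3, 52.0 and 57.1 CPM at day 10. It was near 0 in all 4 libraries of day 60, with log2 fold changes of -7.21 ± 0.43 and -7.77 ± 0.45. LEF1, a TCF/LEF factor, had 9.39 and 13.3 CPM at day 60 in KO organoids, against 122, 118, 139 and 183 CPM at day 10. In WT organoids LEF1 had 17.4 and 19.0 CPM at day 60, against 130.3, 117, 112 and 126 CPM at day 10.

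LEF1 fell by 3.63 ± 0.24 in KO and 2.73 ± 0.22 in WT on the log2 scale, and the difference between genotypes was not called (-0.89 ± 0.28, adjusted p = 0.526). ZNRF3, a membrane ubiquitin ligase that removes Frizzled receptors, had 17.9 and 17.6 CPM at day 60 in KO organoids, against 62.2 to 74.0 CPM at day 10, and 18.1 and 16.5 CPM in WT organoids, against 55.9 to 63.7 CPM. The libraries of each day were tight and the groups far apart, and the log2 fold changes were -1.92 ± 0.14 in KO and -1.79 ± 0.14 in WT. NKD1 (-1.93 ± 0.48 in KO, -3.47 ± 0.53 in WT), NOTUM, which removes the lipid from WNT proteins (-2.89 ± 0.70 and -2.96 ± 0.70), TCF7 (-1.29 ± 0.22 and -1.57 ± 0.23), TCF7L1 (-1.57 ± 0.25 and -1.30 ± 0.25) and AXIN2 (-0.90 ± 0.30 and -1.37 ± 0.31) fell in both. The AXIN2 call in KO was lost without either KO library of day 60 (adjusted p up to 0.113), and that of NOTUM without KO replicate 1 of day 60 (adjusted p = 0.0512). Between the same days, 6 pluripotency markers, 4 of them tested, summed to 50.1 and 46.5 CPM at day 60 in KO organoids, against 1886 to 2695 CPM at day 10, and the neuronal markers to 5192 and 5039 CPM, against 678 to 984 CPM. In WT organoids these sums were 25.9 and 32.4 CPM at day 60, against 1428 to 2254 CPM at day 10, and 5732 and 4354 CPM, against 702 to 2394 CPM. LIN28A made up most of the pluripotency sum at day 10, with 1508 to 2349 CPM in KO and 1169 to 1873 CPM in WT libraries. POU5F1 was at 1.96 to 10.5 CPM there. NANOG was at 0 in all 4 libraries of day 60, and already at 0 to 0.0891 CPM at day 10. TDGF1 was at 0 in both KO libraries and WT replicate 1 of day 60, and already at 0 to 0.0582 CPM at day 10. The part of these changes of marker sums in the levels of the members was not tested.

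**Figure D4:**
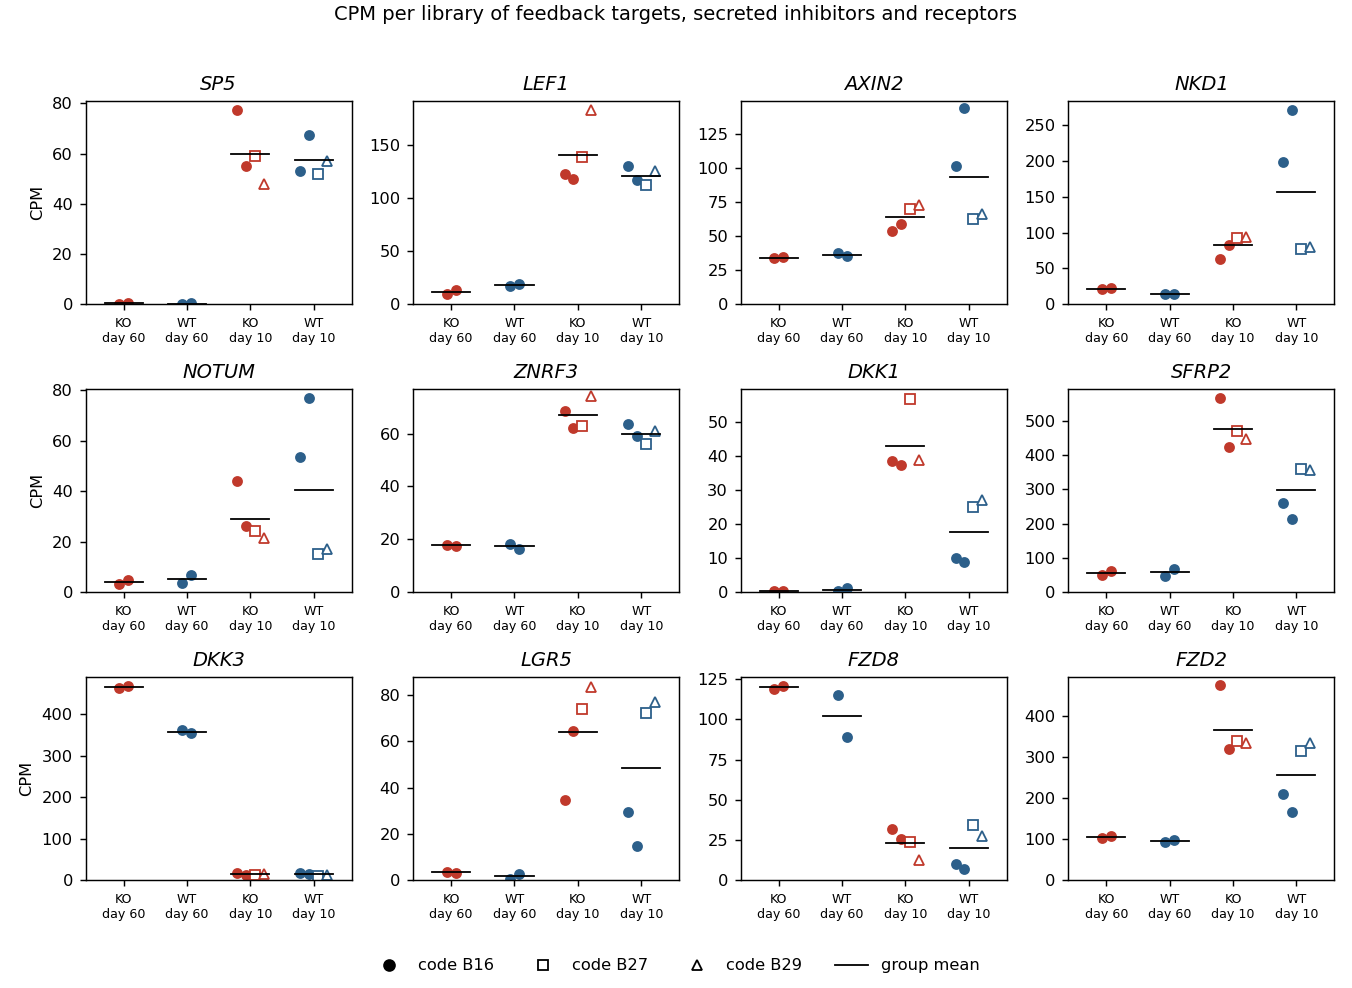
CPM of 12 members in each library (points) with the group mean (line), KO left of WT at day 60 and then at day 10; filled circles are code B16, open squares B27 and open triangles B29. SP5, LEF1, ZNRF3, DKK1, SFRP2 and FZD2 lie lower at day 60 than at day 10 in every library, DKK3 and FZD8 higher.

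Promoter windows of 300 bases, from 250 before to 50 after an annotated start, were read from RefSeq on GRCh38.p14 for 33 members (38 windows). An annotated start is not always the outermost start of the gene. They were searched on both strands for the TCF/LEF core motif CTTTGAA, its close relative CTTTGAT, the variant CTTTGTA and the more frequent CTTTGTT. A match was found in 4 of the 38 windows (10.5%), from SP5, DKK1, TCF7 and WNT3. It was found in 13.8% of all 35116 windows, a higher share than among members. The matched windows of TCF7 and WNT3 lie inside the genes and not at their outermost start. The windows of SP5 and DKK1 are shown because these 2 genes had the largest falls among the targets and inhibitors, with WNT8B and LEF1 as genes that also fell and have no match in the window. Capitals mark the matches, and the SP5, DKK1 and WNT8B windows are on the plus strand of chr2:170715087-170715386, chr10:52314031-52314330 and chr10:100462759-100463058. That of LEF1 is on the minus strand of chr4:108166252-108166551, inside the gene, whose outermost start is at 108168956.
SP5: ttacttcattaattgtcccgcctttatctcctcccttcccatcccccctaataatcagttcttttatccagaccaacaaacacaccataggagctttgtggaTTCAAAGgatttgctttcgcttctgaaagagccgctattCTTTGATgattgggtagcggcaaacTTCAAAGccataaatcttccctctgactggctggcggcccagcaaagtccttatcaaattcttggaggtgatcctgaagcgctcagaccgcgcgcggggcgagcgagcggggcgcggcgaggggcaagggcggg
DKK1: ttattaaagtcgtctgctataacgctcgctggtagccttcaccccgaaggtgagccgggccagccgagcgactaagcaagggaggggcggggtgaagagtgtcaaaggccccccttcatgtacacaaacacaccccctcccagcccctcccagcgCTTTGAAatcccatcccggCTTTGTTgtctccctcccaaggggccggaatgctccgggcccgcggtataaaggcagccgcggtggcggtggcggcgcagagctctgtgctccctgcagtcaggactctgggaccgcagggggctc
WNT8B: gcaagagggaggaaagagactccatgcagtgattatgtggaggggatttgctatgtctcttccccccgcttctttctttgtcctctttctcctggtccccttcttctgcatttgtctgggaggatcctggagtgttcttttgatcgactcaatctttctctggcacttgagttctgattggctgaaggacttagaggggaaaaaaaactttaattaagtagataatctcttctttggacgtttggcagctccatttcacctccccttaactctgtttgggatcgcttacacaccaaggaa
LEF1: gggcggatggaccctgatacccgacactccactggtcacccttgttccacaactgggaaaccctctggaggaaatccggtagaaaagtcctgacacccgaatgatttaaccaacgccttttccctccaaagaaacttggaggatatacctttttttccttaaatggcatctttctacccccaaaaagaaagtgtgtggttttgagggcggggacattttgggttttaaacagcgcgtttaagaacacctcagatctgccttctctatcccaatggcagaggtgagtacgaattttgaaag
SP5 held 3 matches, beginning at -148, -109 and -84 from the start, and DKK1 held 2, at -95 and -76. Any of the 4 motifs taken alone was in 2.62% to 5.2% of all windows. A match is a description of letters and not a binding site.

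**Figure D5:**
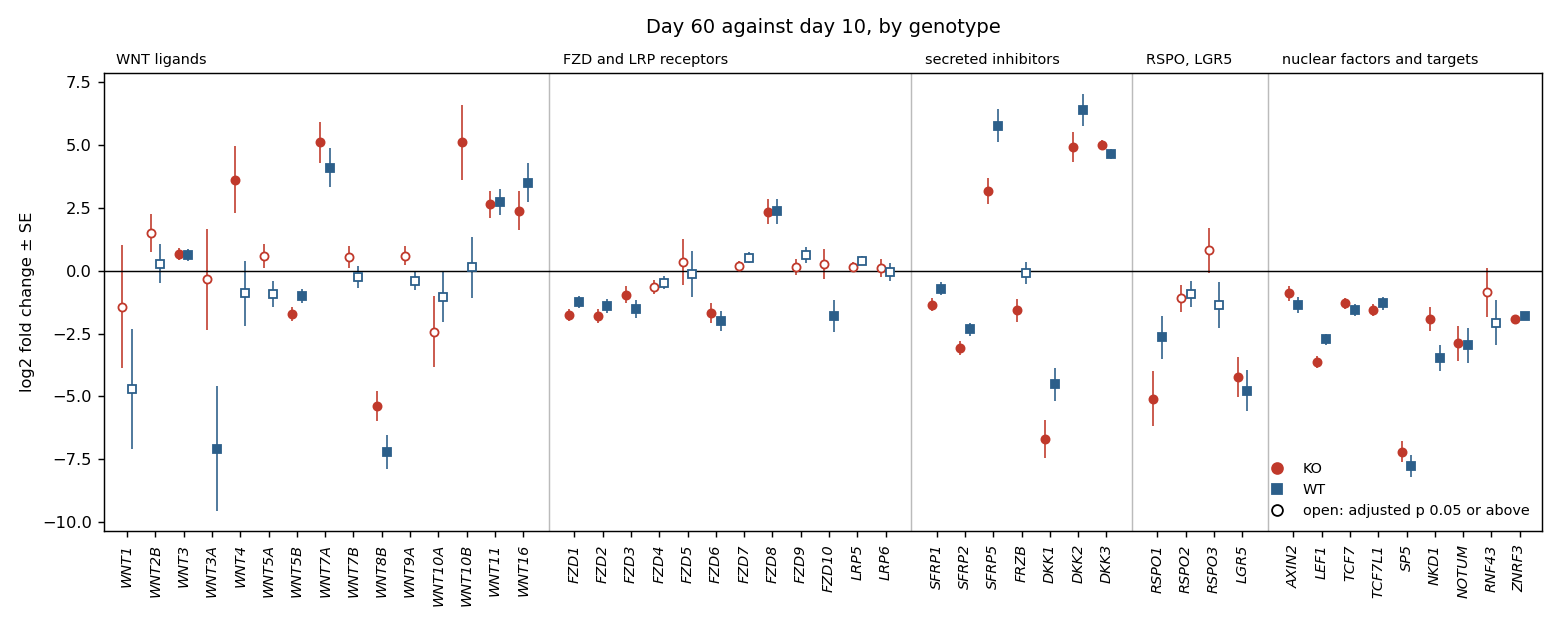
Log2 fold change of day 60 against day 10 with its SE for the 47 tested members, grouped by role, in KO organoids (red circles) and WT organoids (blue squares). Filled symbols have an adjusted p below 0.05; the 9 nuclear factors and targets all lie below 0 in both genotypes.

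At day 10 the feedback targets split into those that were high in the WT libraries of B16 and those that were level. NKD1, an inhibitor of Dishevelled, had 62.9, 83.3, 93.0 and 93.4 CPM in KO libraries, against 198, 271, 76.4 and 80.3 CPM in WT libraries. AXIN2, a scaffold of the destruction complex and a general WNT target, had 54.2, 59.0, 70.3 and 73.1 CPM in KO libraries, against 102, 144, 63.0 and 66.7 CPM in WT libraries. RNF43, a relative of ZNRF3, had 1.11, 0.892, 0.91 and 1.16 CPM in KO libraries, against 9.09, 12.4, 1.75 and 1.14 CPM in WT libraries. In each case WT replicates 1 and 2 lay above all other libraries of day 10.

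Within B16 NKD1 (-1.68 ± 0.18), AXIN2 (-1.12 ± 0.16) and RNF43 (-3.42 ± 0.51) were lower in KO, and within B27 and B29 the values were 0.25 ± 0.18, 0.15 ± 0.16 and -0.49 ± 0.56. The difference between codes was called for all 3 (-1.93 ± 0.25, -1.27 ± 0.23 and -2.93 ± 0.76). NKD1 kept that call in all 12 alternatives, AXIN2 lost it without KO replicate 4 or WT replicate 3, and RNF43 lost it in 8 of 12, for all libraries of day 10 but KO replicate 2 and with other size factors. NOTUM was higher in B16 than in the other codes within WT organoids (2.01 ± 0.31) and had an adjusted p of 0.0601 between genotypes within B16. TCF7 was higher in KO within B16 (0.71 ± 0.18), a call lost without KO replicate 1, WT replicate 1 or WT replicate 2. SP5 (0.14 ± 0.24), LEF1 (-0.04 ± 0.18), TCF7L1 (0.18 ± 0.18) and ZNRF3 (0.09 ± 0.13) were not called there.

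At day 60 the genotypes gave 3 of 47 tested members with an unadjusted p below 0.05, against 995 of 17757 genes, so that the members stood near the background. LEF1 had the values given above, with both KO libraries below both WT libraries (-0.68 ± 0.23, adjusted p = 0.562). With 2 libraries per genotype such a lack of overlap was common, in 46.8% of tested members and 46.5% of all tested genes at day 60. TCF7, another TCF/LEF factor, had 4.13 and 4.78 CPM in KO organoids, against 2.6 and 2.88 CPM in WT organoids (0.70 ± 0.25, adjusted p = 0.629). RSPO1 differed through WT replicate 2 alone (-3.04 ± 1.14, adjusted p = 0.688). That library also held 39 counts of WNT2 and 74 of WNT6, against 0 to 5 in each of the other 3 libraries of day 60. Without WT replicate 2 the value of RSPO1 was 0.28. Without WT replicate 1 the WT arm was replicate 2 alone, with its spread taken from the other groups, and 357 genes were called in place of 4, RSPO1 among them (adjusted p = 0.0346). WNT2 also passed there, but it entered that test only through its counts in the same library, where it had 39 counts. The summed level of 8 mesenchyme markers was 628 and 795 CPM in KO libraries of day 60, against 1902 and 3923 CPM in WT libraries, highest in the same WT replicate 2. All 8 were tested, 7 had a negative log2 fold change, none was called and none was at 0, and the part of this in the WNT2, WNT6 and RSPO1 values was not tested. The median log2 fold change of all members at day 60 was 0.03, against -0.01 over all genes.

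Of 67 other pathway genes 65 were tested, and none was called between genotypes at day 10 or day 60. Within B16 at day 10, 7 were higher and 17 lower in KO, against 8% and 11% of all genes. The difference between codes was called for 2 higher and 7 lower, against 1.51% and 4.44% of all genes. Among them were WLS, the carrier that exports WNT proteins (-2.35 ± 0.34), and DKK4, another DKK inhibitor (4.67 ± 0.92). WLS had 124, 108, 132 and 198 CPM in KO libraries of day 10, against 277, 336, 82.0 and 89.4 CPM in WT libraries, the same 2 WT libraries being highest. Between the days 28 rose and 18 fell in KO, against 30.7% and 26.9% of all genes. In WT 26 rose and 22 fell, against 29.3% and 26.1%. WLS fell in both genotypes (-3.72 ± 0.64 in KO, -4.30 ± 0.66 in WT), while PORCN, which attaches the lipid to WNT proteins, rose (1.23 ± 0.18 and 1.32 ± 0.18). CTNNB1, which encodes beta-catenin, was not called between days in either genotype and stood at 363 and 340.2 CPM at day 60 in KO organoids, against 266, 333, 339 and 381 CPM at day 10. In WT organoids CTNNB1 was at 320.3 and 299 CPM at day 60, against 341 to 352 CPM at day 10.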

How the data were processed

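Whole-number counts per gene symbol and library were deposited by the authors for 12 libraries, 1 column each, and all 12 columns were matched to a sample by name. Per the submitters' processing notes, STAR, HTSeq, DESeq2 and hg19 were used. Their versions, the annotation and any strand setting were not given in the sources used here. Reads from a gene and an overlapping partner on the opposite strand then cannot be told apart. In GENCODE v29 the exons of 12 members overlap another gene, among them FZD4, WNT2B, RNF43 and LEF1. The log2 fold changes and p-values deposited by the authors were used only where their table is named, and their table of normalized signal was not used.

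Genes were kept with filterByExpr over the 4 groups (17757 of 28207), scaled with TMM factors and fitted with the quasi-likelihood method of edgeR 4.0.16 in R 4.3.3, with robust estimation and 2-sided tests. A fit with 4 groups gave the genotype and day effects, and a fit that split day 10 by label code gave the effects within codes. Within-code effects and the comparison of codes within WT were added after the data had been seen. The SE is the log2 fold change divided by the square root of F. CPM are counts scaled to library size times TMM factor. CPM per kb divide by the exon length of GENCODE v29 on GRCh38, which is not the authors' build. Counting intervals cover counting error only. Alternatives were RLE size factors, no filter on low counts, no robust estimation, DESeq2 1.42.0, a replicate block, single days, a code covariate, single codes and each library left out. The steps were tested on simulated data. Members and gene lists were chosen with earlier results of these data known. The text names called members, up to 3 members of each role with the smallest p, called genes of the pathway list and FEZ1. CTNNB1, SOSTDC1, KREMEN1, WNT2, WNT6, LRP6 and levels of other uncalled members were chosen after their values were seen.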

Additional observations from a re-analysis of the deposited data

Results flagged for a closer look

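In groups of 4 libraries, 1 library stood far from the other 3 for 5 of 94 pairs of a member and a group. Chance flags about 1 in 20 independent groups. The pairs share libraries and all 5 flags were in KO libraries, so this number cannot be compared with that rate. In KO replicate 1 of day 10, WNT5B was at 83.8 CPM, against 48.2 to 53.1 in the other KO libraries, and FZD2 at 477 CPM, against 321 to 339. FZD4 and FZD6 were low in the same library, at 15.9 CPM against 26.1 to 27.7, and at 11.8 CPM against 21.8 to 23.0. This is the library with the largest share of ribosomal protein counts, and the part of that in these values was not tested. DKK1 was at 56.9 CPM in KO replicate 3 of day 10, against 37.3 to 38.8 CPM in the other KO libraries.

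The effect of the knockout at day 10 differed between code B16 and codes B27 and B29 for 14 members, by edgeR's test of the difference itself. As log2 fold change in B16 minus that in the other codes, the ligands had -12.15 (WNT1), -6.64 (WNT10B), -5.43 (WNT4), -3.19 (WNT2B), -1.91 (WNT8B) and -1.72 (WNT5A). The receptors had 4.09 (FZD5), 2.45 (FZD8), 1.03 (FZD2) and -2.93 (FZD10). RSPO3 had -3.94, and the feedback targets RNF43, NKD1 and AXIN2 had -2.93, -1.93 and -1.27. Of these, FZD8, FZD10 and NKD1 kept their call in all 12 alternatives run for this comparison.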

How the results depend on the processing

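RLE size factors, no filter on low counts and no robust estimation changed no count of called members by over 1.5 times. Against 0 called members between genotypes at day 10, DESeq2 gave 5 and B16 alone 23. At day 60 leaving out single libraries gave 0 to 2. The difference between days had 14 called within B16, against 7.68% of all genes. Leaving out 1 library within a code leaves 1 library in an arm. The most members within B16 were called without KO replicate 2 of day 10, where far more of all genes were called too. The ranges that follow therefore do not describe the members alone. With single libraries left out, the difference of the KO effect between codes had 3 to 23 called members, the KO effect within B16 15 to 28, and codes in WT 12 to 19.

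Signs reversed within B27 and B29 at day 10, against the value over all libraries, for WNT10B (0.21), WNT4 (0.14), WNT3A (0.72), RSPO3 (0.61), RSPO2 (0.36), RSPO1 (0.26) and NKD1 (0.25). With single libraries left out, DKK1 at day 60 ran from -1.62 to 0.61 and RSPO1 from -3.94 to 0.28. The difference between days ran from -0.11 to 1.80 for LGR5 (-0.22 within B16) and from -3.37 to 0.87 for RSPO1, and the difference between codes from -6.45 to 1.02 for WNT4. The cause was not tested.

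Number 3 carries B27 and number 4 B29 in both genotypes, and numbers 1 and 2 B16, but no label says that a number marks a shared batch or day. Deviations of same-numbered KO and WT libraries of day 10 correlated at 0.12, -0.08, 0.30 and -0.10, and only numbers 1 and 3 matched their own number best. With a replicate block 0 members were called between genotypes at each day, against 29 genes at day 10 and 3 at day 60. For the difference between days 0 members and 1 gene were called. Between days 28 members were called in KO and 29 in WT, against 9641 and 9227 genes. An arm left with 1 library was assumed to vary like the other groups. Several ligands were under 1 CPM, and 2 libraries per genotype at day 60 and within codes limit the precision.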
